A study of Caenorhabditis elegans with 9 samples.

Results

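Translation factors and aminoacyl-tRNA synthetases were followed in 2 Caenorhabditis elegans lines that overexpress the protein modifier SUMO. The set holds every gene whose symbol begins with eif-, ife- or eef-, or is built as a synthetase name such as fars-1, and which is the only gene that the array annotation gives for a probe set. These were 66 genes, read by 93 probe sets, of 17118 genes with such a probe set, and of 22548 probe sets without the array's controls. A further 2 probe sets name a matching gene together with another gene and were not used, so eif-1, which is read only by one of them, is not among the 66. For the 24 genes with several probe sets, up to 3 each, the brightest one was used, and 42 genes had 1. The animals were whole worms labelled as L1 larvae, raised on OP50 bacteria after bleaching to synchronise them, and each RNA was hybridised to an expression array. The aex-3 SUMO line, JS62, carries a transgene that joins the aex-3 promoter, active in neurons, to His-tagged SUMO-1. The myo-4 SUMO line, JS63, drives the same product from the promoter of myo-4 (also called unc-54), which encodes the main myosin of body wall muscle. N2 animals, the wild-type laboratory strain without a transgene, were the control. Each group held 3 biological replicate populations with 1 array each, 9 arrays in all. Each transgene is represented by 1 strain, so the effect of the transgene and other differences of that strain from N2 cannot be told apart.

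Initiation factors bring the first tRNA, the messenger RNA and the small ribosomal subunit together, and the exchange factor eIF2B reloads eIF2 with GTP so that it can deliver the next initiator tRNA. The cap-binding proteins of the ife family are the worm's versions of eIF4E, which recognises the modified 5′ end of messenger RNA. Elongation factors carry charged tRNAs to the ribosome and move it along the message, while aminoacyl-tRNA synthetases join each amino acid to its tRNA, with separate enzymes for many amino acids in the cytosol and in the mitochondrion. In adult worms the germ line makes much protein for oocytes, and several of the ife genes are best known for their work there.

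Values are array signals in linear units, and changes are log2 fold changes with standard errors on log2(signal + 1.62). A gene was called when its adjusted p in the limma fit over 14204 bright probe sets was under 0.05. The fit pools the spread of the 3 groups. The smo-1 transcript, which encodes SUMO, measured 957, 1078 and 1018 in aex-3 SUMO and 1055, 927 and 887 in myo-4 SUMO, against 715, 687 and 512 in N2. Its change was 0.69 (adjusted p = 0.00117) in aex-3 SUMO and 0.59 (adjusted p = 0.00318) in myo-4 SUMO. The probes' sequences were not at hand, so how much of this signal comes from the transgene was not tested. One library, N2 replicate 1, lay at 36.9 on the second principal component, apart from the other N2 arrays at -14.8 and -17.9. Gonad and yolk transcripts typical of adults ranked high on all 9 arrays despite the L1 label, with median percentile ranks among all probe sets of 92.9 to 97.4 for oocyte and eggshell markers and 98.7 to 99.7 for yolk protein genes. In bulk RNA of whole animals, fewer cells of a type and less RNA per cell cannot be told apart. Oocyte and eggshell markers were called higher in 12 of 13 cases in both lines, and the summed signal of the 13 was between 15500 and 16625 in aex-3 SUMO and between 15173 and 17280 in myo-4 SUMO, against 7525 to 12337 in N2. Germ line markers were called higher in 8 of 10 cases in aex-3 SUMO and 10 of 10 in myo-4 SUMO, with sums of 4589 to 5078 and 5148 to 5479, against 2844 to 3870 in N2. None of these markers was at 0 on any array. Their part in the rises of the genes below was not tested. Sperm markers were called lower in 4 of 22 cases in aex-3 SUMO (18.2%) and 5 of 22 in myo-4 SUMO (22.7%). Of all tested probe sets, 24% and 20.3% were called lower. No sperm marker was called lower under median centring or without N2 replicate 1, and quantile normalization gave 0 and 1. Yolk protein genes were called higher in 4 of 5 and 3 of 5 cases. The markers of body wall muscle, neurons and intestine included none called higher with the deposited scaling, and 7 of 8, 7 of 8 and 6 of 7 were called lower in aex-3 SUMO, and 6 of 8, 6 of 8 and 6 of 7 in myo-4 SUMO. Of the promoters' own genes, unc-54 changed by -0.69 (adjusted p = 0.00500) and -1.12 (adjusted p = 0.000267). The dim aex-3 changed by 0.05 ± 0.63 (adjusted p = 0.957) and 0.08 ± 0.63 (adjusted p = 0.924). Its N2 arrays read 1.92, 31.4 and 28.0, so these values do not show whether aex-3 differed. A dimmer aex-3 probe set was not tested.

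More of the translation genes were called higher than lower in both lines. In aex-3 SUMO against N2, 27 of the 64 tested genes were called higher (42.2%) and 2 lower, beside 24.1% and 24% of all tested probe sets (48.1% called in all). In myo-4 SUMO against N2, 32 were called higher and 3 lower, beside 24% and 20.3% of all tested probe sets (44.4% called in all). The changes were small. With the deposited scaling and all arrays, no member reached a 2-fold change in either comparison, where 9.75% and 8.08% of all probe sets did. The highest member change in myo-4 SUMO was 1.05 under quantile normalization and 1.04 under median centring. In aex-3 SUMO it was 1.002 without N2 replicate 1. The median change of the members was 0.23 in aex-3 SUMO (range -0.55 to 0.78) and 0.28 in myo-4 SUMO (range -0.33 to 0.89), and the medians of all probe sets were -0.04 and 0.0039. Relative to the median of all probe sets the members' medians were higher by 0.27 and 0.28. Centring each array on its own median moved the median of all probe sets to 0.18 and 0.15, left those relative values as they were, and gave 39 members higher and 0 lower in aex-3 SUMO and 38 and 0 in myo-4 SUMO. The split was 23 higher and 3 lower in aex-3 SUMO under quantile normalization, and 30 and 1 in myo-4 SUMO. Without N2 replicate 1, 29 members were called higher and 3 lower in aex-3 SUMO, and 29 and 1 in myo-4 SUMO.

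Every aex-3 SUMO array lay above every N2 array for 34 of the 64 genes and below for 7, and 23 genes overlapped. For myo-4 SUMO the numbers were 36 above, 4 below and 24 overlapping. The groups did not overlap for 56.4% of all probe sets in the comparison of aex-3 SUMO with N2 and for 52.3% in that of myo-4 SUMO with N2. The 2 comparisons share the N2 arrays, so a gene that is low in N2 by chance is high in both. With that shared control, 24 genes were called higher in both comparisons and 1 lower in both. A further 3 were called higher in aex-3 SUMO alone and 8 in myo-4 SUMO alone, and 25 were called in neither. The tests of aex-3 SUMO and myo-4 SUMO against each other called none of the members, so these lists show where a threshold was passed and not that the lines differ. How many of all probe sets were called in both comparisons was not counted. The numbers of shared calls therefore do not show that the members differ from other genes. The genes not tested, because they were too dim, were eif-4A3, which encodes a helicase of the exon junction complex and averaged 11.5 in aex-3 SUMO, 10.7 in myo-4 SUMO and 13.3 in N2, and cars-2, which the gene table lists as a pseudogene and which averaged 8.14, 9.78 and 7.08 in those groups.

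**Figure D1:**
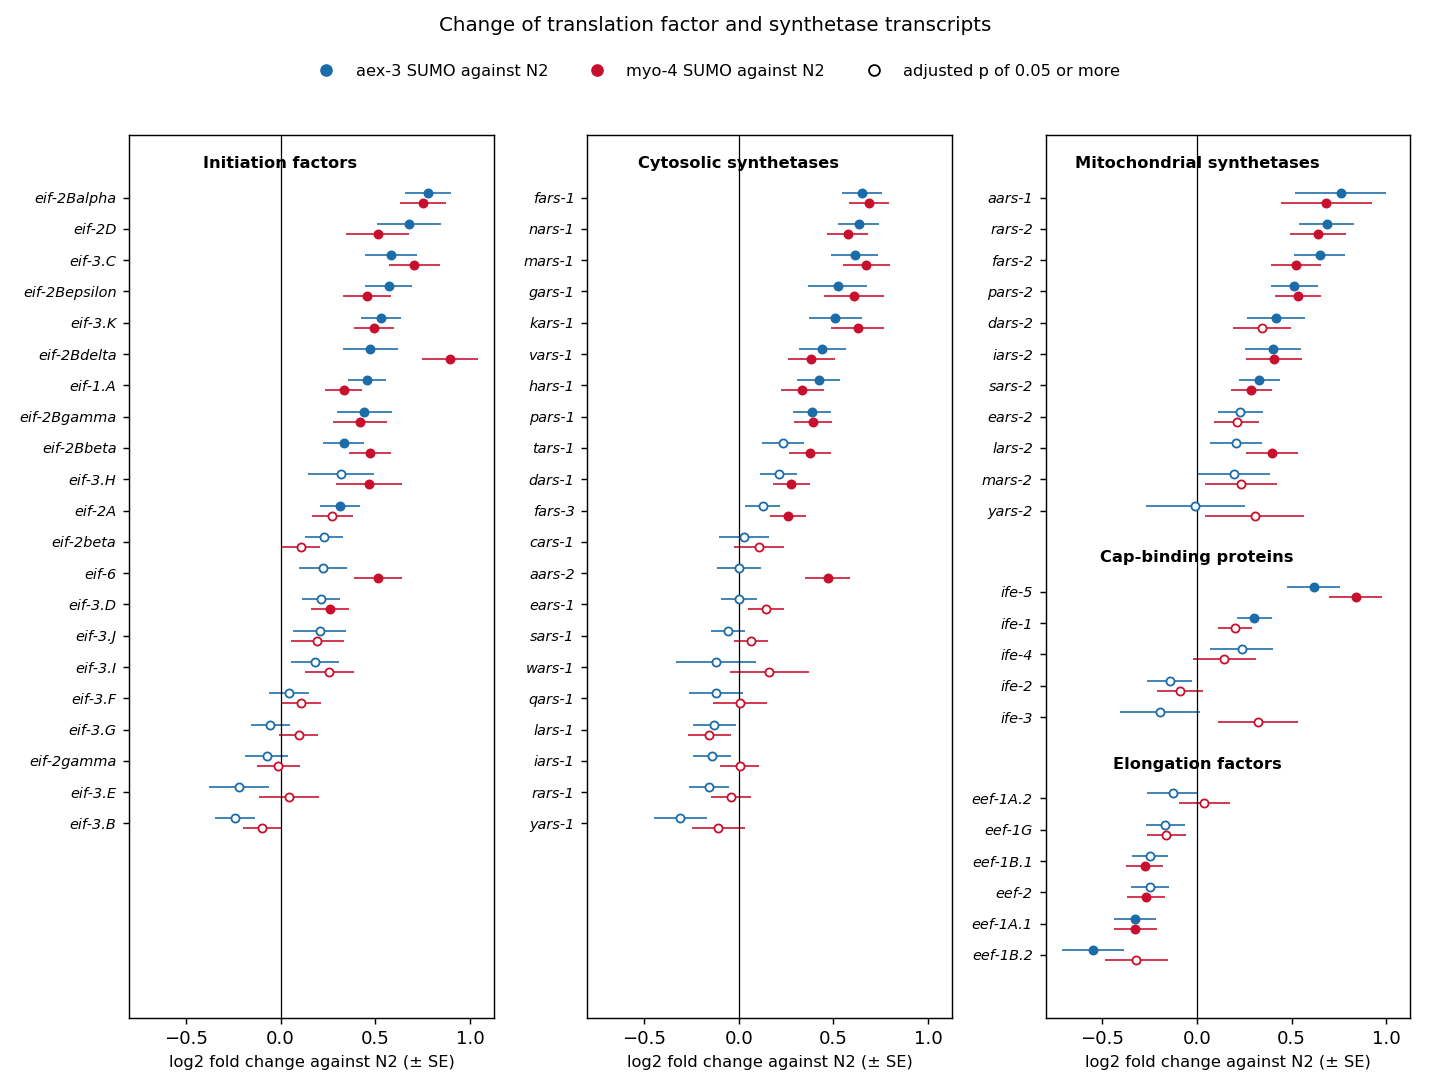
Log2 fold change ± SE of the 64 tested genes, ordered within each role by the change in aex-3 SUMO, with aex-3 SUMO against N2 in blue and myo-4 SUMO against N2 in red (3 arrays per group, both comparisons against the same N2 arrays). Filled points have an adjusted p under 0.05. Most initiation factors and synthetases lie right of 0, with the mitochondrial enzymes centred at 0.40 in both lines, although some, such as yars-1 at -0.31 and eif-3.B at -0.24 in aex-3 SUMO, lie left of it. The elongation factors lie mostly left of 0.

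Among initiation factors, the exchange factor eIF2B stood out by its count. All 5 of its subunit genes were called higher in both lines, beside 24.1% and 24% of all probe sets. Their median change was 0.47 in each line. Of the 21 initiation factor genes tested, 10 were called higher and 0 lower in aex-3 SUMO (median 0.31), and 12 and 0 in myo-4 SUMO (median 0.33). The gene of the alpha subunit, which belongs to the regulatory part of the complex, had the highest change of the initiation factors in aex-3 SUMO. Its eif-2Balpha signals were 295, 301 and 318 in aex-3 SUMO and 297, 310 and 291 in myo-4 SUMO, against 212, 162 and 162 in N2. All transgenic arrays lay above all N2 arrays, and the changes were 0.78 ± 0.12 (adjusted p = 0.000321) and 0.75 ± 0.12 (adjusted p = 0.000428). The gene of the delta subunit, another regulatory subunit, was the only one of the complex with separate levels in the 3 groups. The eif-2Bdelta signals were 31.3, 31.1 and 29.7 in aex-3 SUMO and 42.1, 41.5 and 41.3 in myo-4 SUMO, against 22.0, 19.6 and 23.5 in N2. Its changes against N2 were 0.47 ± 0.15 (adjusted p = 0.0177) in aex-3 SUMO and 0.89 ± 0.15 (adjusted p = 0.000479) in myo-4 SUMO. The call in aex-3 SUMO was lost when aex-3 SUMO replicate 1 (adjusted p = 0.0562) or 2 (adjusted p = 0.0504) or N2 replicate 2 (adjusted p = 0.0509) was left out. Although the arrays of both lines did not overlap, the difference of myo-4 SUMO from aex-3 SUMO, 0.42, did not pass the test across all probe sets (adjusted p = 0.393).

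The catalytic subunit of eIF2B is epsilon, which works together with gamma. The eif-2Bepsilon signals were 76.3, 76.6 and 71.0 in aex-3 SUMO and 73.6, 73.6 and 60.2 in myo-4 SUMO, against 52.3, 47.7 and 49.2 in N2. These groups did not overlap with N2, and the changes were 0.57 ± 0.13 (adjusted p = 0.00291) and 0.46 ± 0.13 (adjusted p = 0.0112), the second of which ended without myo-4 SUMO replicate 2 (adjusted p = 0.0511). The regulatory subunit gene eif-2Bbeta measured 240, 212 and 203 in aex-3 SUMO and 253, 227 and 240 in myo-4 SUMO, against 169, 181 and 167 in N2. It changed by 0.33 ± 0.11 (adjusted p = 0.0237) and 0.47 ± 0.11 (adjusted p = 0.00415), and leaving out aex-3 SUMO replicate 1 ended the call in aex-3 SUMO (adjusted p = 0.117). The eif-2Bgamma signals were 235, 272 and 249 in aex-3 SUMO and 262, 251 and 231 in myo-4 SUMO, against 234, 171 and 157 in N2. In this gene N2 replicate 1 came close to the transgenic arrays and overlapped with those of myo-4 SUMO. Its changes were 0.44 ± 0.14 (adjusted p = 0.0219) and 0.42 ± 0.14 (adjusted p = 0.0305). With 1 array left out they ranged from 0.33 to 0.61 in aex-3 SUMO and from 0.31 to 0.59 in myo-4 SUMO. Each of the 2 calls ended without any 1 of 4 arrays. The call in aex-3 SUMO was lost when aex-3 SUMO replicate 2 (adjusted p = 0.0812) or 3 (adjusted p = 0.0563) or N2 replicate 2 (adjusted p = 0.0649) or 3 (adjusted p = 0.0743) was left out, and that in myo-4 SUMO without myo-4 SUMO replicate 1 (adjusted p = 0.102) or 2 (adjusted p = 0.0832) or N2 replicate 2 (adjusted p = 0.0847) or 3 (adjusted p = 0.1). Under quantile normalization 3 of the 5 subunit genes were called higher in aex-3 SUMO.

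**Figure D2:**
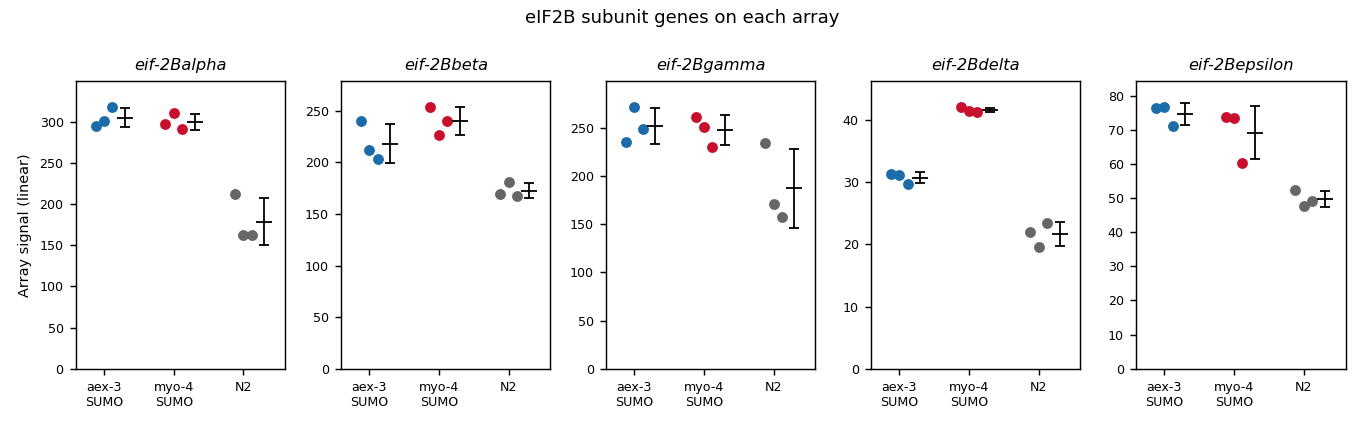
Array signal (linear axis from 0) of the 5 genes of the exchange factor eIF2B, each point 1 array, with the mean ± SD of 3 arrays beside each group. The transgenic arrays lie above N2 for the alpha, beta, delta and epsilon subunits. For gamma, N2 replicate 1 at 234 reaches the myo-4 SUMO arrays.

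The 2 measured subunits of eIF2, the substrate of eIF2B, were not called in either line. The changes of eif-2beta were 0.23 (adjusted p = 0.0700) in aex-3 SUMO and 0.11 in myo-4 SUMO, and those of eif-2gamma were -0.07 and -0.01. Known in mammals as an alternative carrier of initiator tRNA, eIF2D is encoded by eif-2D, which measured 110, 127 and 114 in aex-3 SUMO and 121, 96.3 and 96.8 in myo-4 SUMO, against 95.1, 59.2 and 67.6 in N2. All transgenic arrays were above the N2 arrays, by 0.68 ± 0.17 (adjusted p = 0.00538) in aex-3 SUMO and 0.51 ± 0.17 (adjusted p = 0.0250) in myo-4 SUMO. The call in myo-4 SUMO ended without myo-4 SUMO replicate 1 (adjusted p = 0.112), N2 replicate 2 (adjusted p = 0.0954) or N2 replicate 3 (adjusted p = 0.0661). For eif-2A, another such factor in mammals, the changes were 0.31 (adjusted p = 0.0275) in aex-3 SUMO and 0.27 (adjusted p = 0.0513) in myo-4 SUMO. The scanning factor gene eif-1.A was called higher in both lines, at 0.46 (adjusted p = 0.00250) and 0.33 (adjusted p = 0.0157). The gene eif-6, whose product keeps the large ribosomal subunit from joining early, was called in myo-4 SUMO only, at 0.51 (adjusted p = 0.00610), while its change in aex-3 SUMO was 0.23 (adjusted p = 0.155). The call of eif-1.A in myo-4 SUMO ended without myo-4 SUMO replicate 2 (adjusted p = 0.0613), and that of eif-2A in aex-3 SUMO without any 1 of 4 arrays, with adjusted p up to 0.101.

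The subunits of eIF3, the large scaffold that holds the initiation complex on the small ribosomal subunit, did not move as one. Against N2, 24.1% of all probe sets were called higher in aex-3 SUMO and 24% in myo-4 SUMO. Of 10 tested subunit genes, 2 were called higher in aex-3 SUMO (20%, median 0.19) and 4 in myo-4 SUMO (40%, median 0.23). Under median centring 6 were called higher in aex-3 SUMO (median 0.41). In myo-4 SUMO the number was 2 without aex-3 SUMO replicate 1, myo-4 SUMO replicate 3, N2 replicate 1 or N2 replicate 2, and also 2 without the filter, without the intensity trend or with a replicate block. The core subunit gene eif-3.C had the highest changes, with 455, 534 and 467 in aex-3 SUMO and 518, 581 and 487 in myo-4 SUMO, against 331, 381 and 266 in N2. No transgenic array overlapped with N2, and the changes were 0.58 ± 0.14 (adjusted p = 0.00393) and 0.71 ± 0.14 (adjusted p = 0.00139). The small accessory subunit gene eif-3.K was also called higher in both lines, at 0.53 (adjusted p = 0.00143) and 0.49 (adjusted p = 0.00258). In myo-4 SUMO alone, eif-3.H reached 0.47 (adjusted p = 0.0439) and the cap-contacting subunit eif-3.D, as it is known in human cells, reached 0.26 (adjusted p = 0.0497), both just under the threshold. These calls of eif-3.H and eif-3.D ended without any 1 of 5 and any 1 of 7 of the 9 arrays, with adjusted p up to 0.132 and 0.154. At the other end, the core subunit gene eif-3.B had changes of -0.24 (adjusted p = 0.0771) in aex-3 SUMO and -0.10 in myo-4 SUMO, and eif-3.E had -0.22 (adjusted p = 0.264) and 0.05. Under quantile normalization eif-3.B was called lower in aex-3 SUMO (-0.34, adjusted p = 0.0213), as it was without N2 replicate 1 (-0.27, adjusted p = 0.0411).

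Of the 5 cap-binding protein genes, only ife-5 was called higher in both lines. Counted together, 2 were called higher in aex-3 SUMO (40%, median 0.24) and 1 in myo-4 SUMO (20%, median 0.20), and none was called lower. Of all probe sets, 24.1% and 24% were called higher. The proteins of ife-1, ife-2 and ife-5 accept the trimethylguanosine caps of trans-spliced worm messages as well as ordinary caps. The ife-5 signals were 41.4, 37.6 and 44.2 in aex-3 SUMO and 50.4, 45.04 and 48.7 in myo-4 SUMO, against 24.97, 28.0 and 25.6 in N2. The lines lay apart from N2 on every array and had changes of 0.62 ± 0.14 (adjusted p = 0.00321) and 0.84 ± 0.14 (adjusted p = 0.000529). For ife-1, whose product associates with P granules of the germ line and is needed for sperm, the arrays read 1004, 1028 and 1087 in aex-3 SUMO and 958, 996 and 951 in myo-4 SUMO, against 867, 855 and 805 in N2. Both lines were above N2 on all arrays, but the change passed the test in aex-3 SUMO (0.30 ± 0.09, adjusted p = 0.0159) and not in myo-4 SUMO (0.20 ± 0.09, adjusted p = 0.0900). Leaving out aex-3 SUMO replicate 3 ended the call in aex-3 SUMO (adjusted p = 0.0739).

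The somatic family member ife-2, known for its effect on lifespan, measured 118, 127 and 113.05 in aex-3 SUMO and 121 and 132 in replicates 1 and 3 of myo-4 SUMO, with replicate 2 just below them (mean 124 ± 7.09, SD, n = 3), against 120, 151 and 127 in N2. Its groups overlapped, and the changes were -0.14 ± 0.12 (adjusted p = 0.338) and -0.09 ± 0.12 (adjusted p = 0.574). The ife-4 gene, active in neurons and muscle, measured 32.1, 30.96 and 32.5 in aex-3 SUMO and 26.3, 34.9 and 28.9 in myo-4 SUMO, against 28.6, 22.8 and 29.6 in N2. The changes of 0.24 ± 0.17 (adjusted p = 0.260) and 0.14 ± 0.17 (adjusted p = 0.501) did not pass the test either. For ife-3, the closest relative of human eIF4E, the answer depended on the probe set. The brighter one read 295, 243 and 285 in aex-3 SUMO and 351, 394 and 432 in myo-4 SUMO, against 413, 367 and 202 in N2, where the control arrays spread over both lines. Its changes of -0.19 ± 0.21 (adjusted p = 0.464) and 0.32 ± 0.21 (adjusted p = 0.233) were not called. The dimmer ife-3 probe set read 251, 225 and 250 in aex-3 SUMO and 254, 248 and 256 in myo-4 SUMO, against 193, 169 and 134 in N2. This one separated both lines from N2, with changes of 0.56 ± 0.13 (adjusted p = 0.00410) and 0.62 ± 0.13 (adjusted p = 0.00243). The direction of ife-3 in aex-3 SUMO is therefore unsettled.

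**Figure D3:**
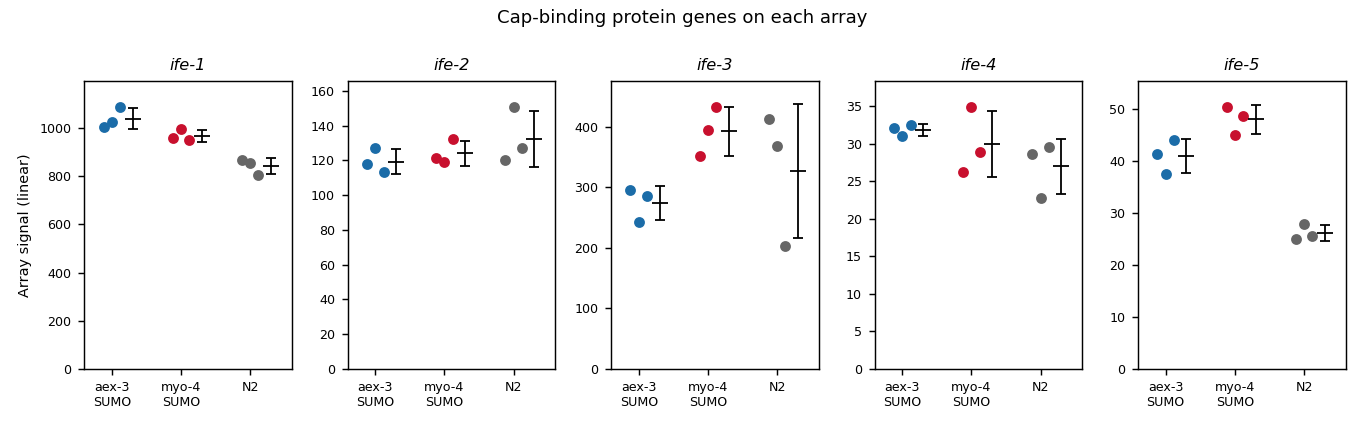
Array signal (linear axes from 0) of the 5 cap-binding protein genes on each of the 9 arrays, with the mean ± SD of 3 arrays beside each group and ife-3 shown by its brighter probe set. The ife-5 arrays of both lines lie above N2, the ife-1 arrays lie above N2 by a smaller margin, and the N2 arrays of ife-3 spread from 202 to 413.

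The elongation factors had the lowest median changes of the roles, -0.25 in aex-3 SUMO and -0.27 in myo-4 SUMO with the deposited scaling, but -0.02 and 0.01 under quantile normalization and -0.03 and -0.12 under median centring. Of 6 genes tested, 0 were called higher in either line, 2 lower in aex-3 SUMO (33.3%) and 3 lower in myo-4 SUMO (50%). Of all probe sets, 24% and 20.3% were called lower, so with only 6 genes the share in aex-3 SUMO was near that of all probe sets. Under median centring none of the 6 was called lower. The eef-1A.1 gene, which encodes the factor that carries charged tRNA to the ribosome, read 4886, 5343 and 5276 in aex-3 SUMO and 4353, 5816 and 5457 in myo-4 SUMO, against 6958, 6232 and 6268 in N2. Every transgenic array was below every N2 array, and the change was -0.33 ± 0.11 in both lines (adjusted p = 0.0299 in aex-3 SUMO and adjusted p = 0.0329 in myo-4 SUMO), yet 0.01 in both under quantile normalization. The near-identical gene eef-1A.2 had changes of -0.13 and 0.04 and was not called. Transcripts of such close copies can bind the same probes, so the split between them is uncertain. The translocation factor gene eef-2 measured 3988, 4239 and 4122 in aex-3 SUMO and 3535, 4318 and 4376 in myo-4 SUMO, against 5014, 4827 and 4826 in N2. It too lay below N2 on all transgenic arrays, by -0.25 ± 0.10 (adjusted p = 0.0551) in aex-3 SUMO and -0.27 ± 0.10 (adjusted p = 0.0431) in myo-4 SUMO, and its change was 0.02 and 0.01 under quantile normalization. A second eef-2 probe set gave -0.25 (adjusted p = 0.0619) and -0.20 (adjusted p = 0.140), not called, and its myo-4 SUMO arrays overlapped with N2.

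The exchange factor genes for eEF1A also had changes below 0. The eef-1B.1 signals were 2325, 2480 and 2301 in aex-3 SUMO and 2156, 2402 and 2421 in myo-4 SUMO, against 3082, 2683 and 2684 in N2. Its changes were -0.25 ± 0.10 (adjusted p = 0.0511) and -0.27 ± 0.10 (adjusted p = 0.0361). Under quantile normalization the eef-1B.1 changes were -0.09 and -0.06, and under median centring -0.03 and -0.13, none of them called. The eef-1B.2 gene read 1134, 1128 and 820 in aex-3 SUMO and 1203, 1172 and 1196 in myo-4 SUMO, against 1129, 1706 and 1702 in N2. Here N2 replicate 1 lay among the transgenic arrays and aex-3 SUMO replicate 3 was the lowest. The change of eef-1B.2 was -0.55 ± 0.16 (adjusted p = 0.0154) in aex-3 SUMO and -0.32 ± 0.16 (adjusted p = 0.130) in myo-4 SUMO. In aex-3 SUMO it was still called under quantile normalization (-0.43, adjusted p = 0.0348) and not under median centring (-0.33, adjusted p = 0.0897). The call was lost when aex-3 SUMO replicate 3 (adjusted p = 0.0837) or N2 replicate 2 (adjusted p = 0.0600) or 3 (adjusted p = 0.0578) was left out, and a dimmer probe set of the gene gave 0.53 and 0.44, not called. The call of eef-1A.1 in aex-3 SUMO ended without any 1 of the 3 aex-3 SUMO arrays or without N2 replicate 1, with adjusted p up to 0.105. In myo-4 SUMO, the calls of eef-1B.1 and eef-2 each ended without any 1 of 7 of the 9 arrays, with adjusted p up to 0.0966 and 0.115, and that of eef-1A.1 without any 1 of 4, with adjusted p up to 0.0930. Without myo-4 SUMO replicate 1 the changes of eef-1A.1 and eef-2 in myo-4 SUMO were -0.20 and -0.17.

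**Figure D4:**
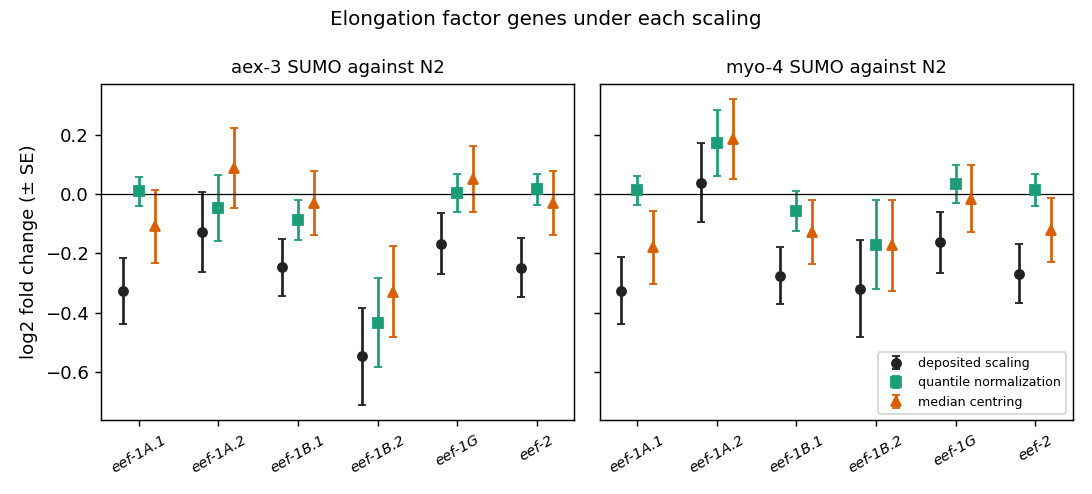
Log2 fold change ± SE against N2 of the 6 elongation factor genes under the deposited scaling, quantile normalization and median centring, with aex-3 SUMO and myo-4 SUMO in separate panels and the same 3 arrays per group in each. With the deposited scaling most genes lie below 0. With quantile normalization eef-1A.1 and eef-2 lie at 0.01 to 0.02.

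With the deposited scaling and all arrays, no synthetase gene was called lower in either line. Of 32 tested, 15 were called higher in aex-3 SUMO (46.9%, median 0.23) and 19 in myo-4 SUMO (59.4%, median 0.34). Of all probe sets, 24.1% and 24% were called higher. The number in myo-4 SUMO was 12 without myo-4 SUMO replicate 1 and 11 without myo-4 SUMO replicate 2. Among the 21 counted as cytosolic, 8 were called higher in aex-3 SUMO (38.1%, median 0.13) and 12 in myo-4 SUMO (57.1%, median 0.28). A gene that serves both compartments would be among these 21. The alpha subunit gene of the phenylalanine enzyme, fars-1, measured 648, 674 and 715 in aex-3 SUMO and 697, 703 and 688 in myo-4 SUMO, against 406, 494 and 400 in N2. All transgenic arrays stood well above N2, with changes of 0.65 ± 0.11 (adjusted p = 0.000450) and 0.69 ± 0.11 (adjusted p = 0.000347). Its partner subunit gene fars-3 had smaller changes, 0.13 (adjusted p = 0.272) and 0.26 (adjusted p = 0.0372). The asparagine enzyme gene nars-1 measured 669, 668 and 745 in aex-3 SUMO and 694, 655 and 648 in myo-4 SUMO, against 471, 481 and 393 in N2. The nars-1 changes were 0.63 ± 0.11 (adjusted p = 0.000575) and 0.57 ± 0.11 (adjusted p = 0.00121).

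The methionine enzyme gene mars-1 read 436, 423 and 450 in aex-3 SUMO and 462, 445 and 455 in myo-4 SUMO, against 306, 324 and 233 in N2. All transgenic arrays again lay above N2, by 0.61 ± 0.12 (adjusted p = 0.00163) and 0.67 ± 0.12 (adjusted p = 0.00105). The lysine enzyme gene kars-1 read 933, 962 and 1028 in aex-3 SUMO and 974, 1093 and 1105 in myo-4 SUMO, against 779, 768 and 532 in N2. It changed by 0.51 ± 0.14 (adjusted p = 0.00920) and 0.63 ± 0.14 (adjusted p = 0.00317), with N2 replicate 3 the lowest array. Without that array the change in aex-3 SUMO was 0.33. The genes of the glycine, valine, histidine and proline enzymes were also called higher in both lines, gars-1 at 0.52 and 0.61, vars-1 at 0.44 and 0.38, hars-1 at 0.42 and 0.34, and pars-1 at 0.39 and 0.39. Without N2 replicate 3 the gars-1 change in aex-3 SUMO was 0.34 (adjusted p = 0.0489), and under quantile normalization its call there ended (0.39, adjusted p = 0.0681). The compartment of vars-1, like that of most synthetases here, was set by its number alone. Without vars-1, 7 of 20 cytosolic genes were higher in aex-3 SUMO and 11 of 20 in myo-4 SUMO. In myo-4 SUMO the threonine and aspartate enzyme genes tars-1 (0.38, adjusted p = 0.0154) and dars-1 (0.28, adjusted p = 0.0325) were called as well. The call of tars-1 ended without myo-4 SUMO replicate 2 (adjusted p = 0.0643), as did in myo-4 SUMO those of hars-1 (adjusted p = 0.114) and vars-1 (adjusted p = 0.0645), which also ended without myo-4 SUMO replicate 1 or 1 of the N2 arrays. Those of dars-1 and fars-3 ended without any 1 of 6 and any 1 of 7 of the 9 arrays, with adjusted p up to 0.122 and 0.101.

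The alanine enzyme gene aars-2 was the cytosolic gene with the lowest unadjusted p between the lines. It measured 369, 367 and 402 in aex-3 SUMO and 528, 582 and 469 in myo-4 SUMO, against 338, 387 and 414 in N2. The myo-4 SUMO arrays lay above all others, and the aex-3 SUMO arrays lay inside the N2 range. The aars-2 changes against N2 were 0.0023 ± 0.12 (adjusted p = 0.988) and 0.47 ± 0.12 (adjusted p = 0.00641), and its second probe set gave -0.36 and -0.07, not called. The tyrosine enzyme gene yars-1 had the lowest change of the cytosolic genes in aex-3 SUMO, -0.31 (adjusted p = 0.0854), with -0.11 in myo-4 SUMO. It was called lower in aex-3 SUMO under quantile normalization (-0.45, adjusted p = 0.0220). The cysteine, glutamate, glutamine, serine, tryptophan, leucine, isoleucine and arginine enzyme genes cars-1, ears-1, qars-1, sars-1, wars-1, lars-1, iars-1 and rars-1 were not called in either line.

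Of the 11 mitochondrial synthetase genes tested, 7 were called higher in each line (63.6%), beside 24.1% and 24% of all probe sets. The median change was 0.40 in both. The mitochondrial alanine enzyme gene aars-1 was dim, with 35.1, 32.4 and 46.4 in aex-3 SUMO and 40.9, 34.5 and 31.7 in myo-4 SUMO, against 30.8, 22.3 and 14.3 in N2. The N2 arrays lay below the transgenic ones but spread by more than either line. The aars-1 changes were 0.76 ± 0.24 (adjusted p = 0.0195) and 0.68 ± 0.24 (adjusted p = 0.0339), and a second probe set gave 0.49 and 0.10. The aars-1 call in aex-3 SUMO was lost when aex-3 SUMO replicate 3 (adjusted p = 0.0899) or N2 replicate 3 (adjusted p = 0.0747) was left out, and the one in myo-4 SUMO ended without any 1 of 4 arrays, with adjusted p up to 0.131. Without N2 replicate 3 the changes were 0.49 and 0.42. The mitochondrial arginine enzyme gene rars-2 read 123, 118.62 and 138 in aex-3 SUMO and 129, 128 and 110 in myo-4 SUMO, against 71.7, 67.7 and 97.1 in N2. Both lines lay above N2 on every array, and the changes were 0.69 ± 0.15 (adjusted p = 0.00225) and 0.64 ± 0.15 (adjusted p = 0.00378).

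The mitochondrial phenylalanine enzyme gene fars-2 measured 239, 253 and 248 in aex-3 SUMO and 190, 240 and 253 in myo-4 SUMO, against 176, 159 and 138 in N2. Its transgenic arrays were all above N2 too, by 0.65 ± 0.13 (adjusted p = 0.00180) and 0.52 ± 0.13 (adjusted p = 0.00712). For the proline enzyme gene pars-2 the arrays read 117, 116 and 137 in aex-3 SUMO and 130, 117 and 127 in myo-4 SUMO, against 80.3, 96.3 and 81.4 in N2. The pars-2 changes were 0.51 ± 0.12 (adjusted p = 0.00454) and 0.53 ± 0.12 (adjusted p = 0.00403). The isoleucine and serine enzyme genes iars-2 (0.40 and 0.41) and sars-2 (0.33 and 0.29) were called in both lines, dars-2 in aex-3 SUMO (0.42, adjusted p = 0.0394) and lars-2 in myo-4 SUMO (0.40, adjusted p = 0.0336). Calls of these 4 genes lay near the threshold, and each could be lost by leaving out 1 array, in some cases an array of the other line. That of sars-2 in myo-4 SUMO ended without any 1 of 8 of the 9 arrays, those of dars-2 and lars-2 without any 1 of 5, and those of iars-2 in each line without any 1 of 4, with adjusted p up to 0.121 for sars-2, 0.126 for dars-2, 0.0885 for lars-2 and 0.156 for iars-2. The genes ears-2, mars-2 and yars-2 were not called. The number of calls in this class fell when some single arrays were left out. In aex-3 SUMO it was 3 without aex-3 SUMO replicate 3. In myo-4 SUMO it was 3 without myo-4 SUMO replicate 1 and 4 without myo-4 SUMO replicate 2, N2 replicate 1 or N2 replicate 3. Without N2 replicate 1 these 4 were 36.4%, beside 26.6% of all probe sets called higher in myo-4 SUMO.

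For 12 pairings of a cytosolic with a mitochondrial gene for the same amino acid, the fold changes were set side by side. The change of the mitochondrial gene was above that of its cytosolic partner in 10 of 12 pairings in each line, by a median difference in log2 fold change of 0.32 in aex-3 SUMO and 0.22 in myo-4 SUMO. The difference was not tested, the pairings of fars-2 with fars-1 and with fars-3 share a gene, and both comparisons share N2. The arginine pair was among the widest, with 0.69 in aex-3 SUMO and 0.64 in myo-4 SUMO for rars-2, beside -0.16 and -0.04 for rars-1. The isoleucine pair had 0.40 and 0.41 for iars-2 beside -0.14 and 0.0043 for iars-1. The exceptions in both lines were the phenylalanine pairing of fars-2 with fars-1 and the methionine pair, where mars-2 changed by 0.19 and 0.23 beside 0.61 and 0.67 for mars-1.

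**Figure D5:**
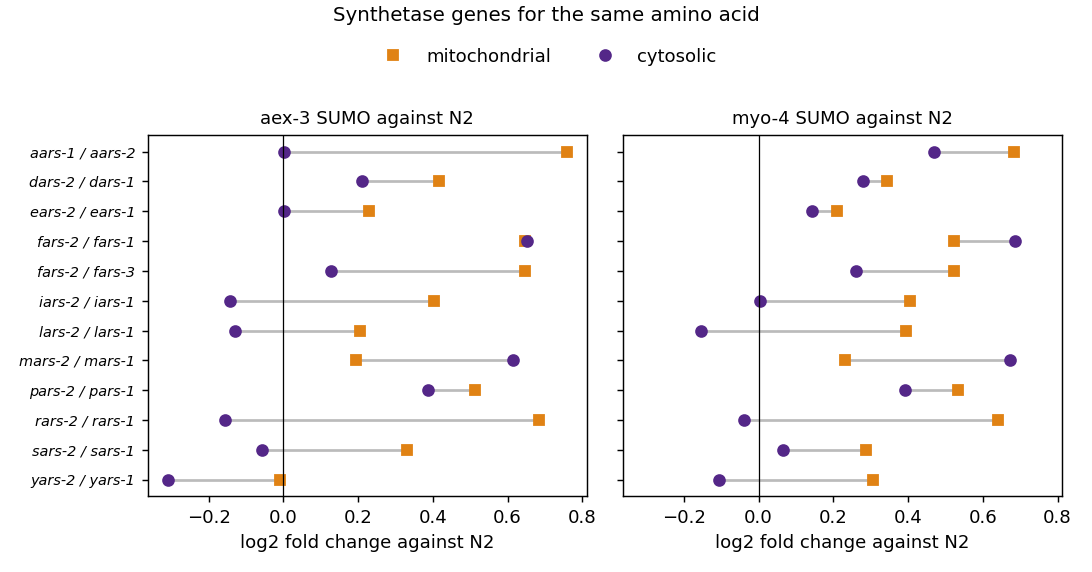
Log2 fold change against N2 of the mitochondrial synthetase gene (orange squares) and its cytosolic partner (purple circles) for 12 pairings, with aex-3 SUMO on the left and myo-4 SUMO on the right. Each symbol is the estimate from 3 arrays per group, and a grey line joins a pairing. In each panel the square lies right of the circle in 10 of 12 pairings.

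Another 40 translation genes were listed by symbols of other forms, so the list may hold genes of the same families under other names. Of these 40, 33 were tested. In aex-3 SUMO 9 were called higher and 5 lower (median 0.13), and in myo-4 SUMO 13 and 5 (median 0.28). These are 27.3% higher and 15.2% lower in aex-3 SUMO, beside 24.1% and 24% of all probe sets, and 39.4% and 15.2% in myo-4 SUMO, beside 24% and 20.3%, so the share called higher in aex-3 SUMO was near that of all probe sets. The scaffold that binds the ife proteins, eIF4G, is encoded by ifg-1, which measured 147, 131 and 149 in aex-3 SUMO and 144, 135 and 109 in myo-4 SUMO, against 29.98, 62.5 and 48.9 in N2. Its changes of 1.62 ± 0.21 (adjusted p = 0.000106) and 1.48 ± 0.21 (adjusted p = 0.000202) exceeded those of every member. The mitochondrial elongation factor gene tufm-2 (EF-Tu) read 223, 227 and 220 in aex-3 SUMO and 232, 224 and 187 in myo-4 SUMO, against 117, 131 and 122 in N2, a change of 0.85 ± 0.11 (adjusted p = 0.000134) and 0.78 ± 0.11 (adjusted p = 0.000241). Its exchange factor gene tsfm-1 (EF-Ts) read 430, 428 and 439 in aex-3 SUMO and 374, 403 and 376 in myo-4 SUMO, against 238, 283 and 230 in N2, with changes of 0.79 (adjusted p = 0.000140) and 0.62 (adjusted p = 0.000707). A second EF-Tu gene, tufm-1, was called higher too (0.60 and 0.41). Its call in myo-4 SUMO ended without myo-4 SUMO replicate 1 (adjusted p = 0.0721), myo-4 SUMO replicate 2 (adjusted p = 0.0702) or N2 replicate 1 (0.25, adjusted p = 0.0527). The mitochondrial EF-G gene gfm-1 had changes of 0.04 and 0.01 and was not called.

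The release factor gene erfa-1 measured 388, 366 and 359 in aex-3 SUMO and 414, 380 and 351 in myo-4 SUMO, against 226, 238 and 195 in N2, changes of 0.76 (adjusted p = 0.000252) and 0.80 (adjusted p = 0.000201). The kinase gene pek-1, whose product phosphorylates eIF2 under stress of the endoplasmic reticulum and so curbs the exchange by eIF2B, went the other way. It measured 62.2, 60.3 and 54.6 in aex-3 SUMO and 52.4, 48.2 and 53.2 in myo-4 SUMO, against 109, 96.9 and 115 in N2. Both lines lay far below N2, and the changes were -0.84 ± 0.12 (adjusted p = 0.000225) and -1.03 ± 0.12 (adjusted p = 6.51e-05). The other genes called lower in both lines were abcf-2 (-0.86 and -0.75), the eIF5A gene iff-2 (-0.58 and -0.50) and the poly(A)-binding protein genes pab-1 (-0.36 and -0.29) and pab-2 (-0.47 and -0.29). In myo-4 SUMO the calls of pab-1 and pab-2 ended without any 1 of 6 and any 1 of 8 of the 9 arrays, with adjusted p up to 0.115 and 0.170. Under median centring 3 genes of the list were called lower in each line, in place of 5.

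Between the lines, myo-4 SUMO against aex-3 SUMO, no member passed the limma test, beside 0.239% of all probe sets. At an unadjusted p under 0.05 there were 4 members, beside 8.78% of all probe sets, namely ife-3, aars-2, eif-2Bdelta and eif-6, all with higher values in myo-4 SUMO. The lowest adjusted p was 0.158, that of aars-2. The myo-4 SUMO arrays lay above the aex-3 SUMO arrays for 13 of 64 members and below for 3, and 48 overlapped, where 20.8% of all probe sets did not overlap. With 3 arrays against 3, an exact permutation test of a single gene cannot go below a p of 0.1. Between the lines the mitochondrial gene had the higher fold change in 3 of 12 pairings of synthetases.

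Some further genes had probe sets that differed in their call or in their sign. A dimmer probe set of eif-3.F was called higher in aex-3 SUMO (0.59, adjusted p = 0.0374), while the one used was not. In myo-4 SUMO the calls of eif-6, eif-3.D and pars-2 were not shared by a dimmer probe set, which gave 0.23 (adjusted p = 0.213) for eif-6, 0.22 (adjusted p = 0.0789) for eif-3.D and 0.31 (adjusted p = 0.147) for pars-2. The dimmer probe set of iars-2 was not called in either line, at 0.28 (adjusted p = 0.187) in aex-3 SUMO and 0.40 (adjusted p = 0.0734) in myo-4 SUMO. Among genes with no call from any probe set, those of eif-3.I, mars-2, sars-1 and yars-1 differed in sign in aex-3 SUMO, and those of eef-1A.2 and yars-1 in myo-4 SUMO.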

How the data were processed

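Expression was measured on 9 arrays, 3 per group. The authors deposited linear intensity values, 1 per probe set. The submitters' processing notes name GCOS, without a version. Arrays shared a trimmed mean (within 0.0089%) and were used as deposited. After removal of 77 control probe sets, log2(signal + 1.62) was taken, where 1.62 is the median of the arrays' 10th percentiles. Probe sets above the 40th percentile on at least 3 arrays (14204) were fitted with limma 3.58.1 in R 4.3.3 (lmFit, eBayes with trend, 6 residual and 6.88 prior degrees of freedom, two-sided, Benjamini-Hochberg over all kept). The number of arrays limits the precision.

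Genes were named from the platform annotation, where 20766 probe sets had 1 gene, 887 several and 895 none. No member's symbol differed from that in the WBcel235 gene table. The genome build and aligner are not given in the sources used here. Many probe sets are of types that may also detect related transcripts. Synthetases ending in -1, fars-3 and aars-2 counted as cytosolic, those ending in -2 and aars-1 as mitochondrial.

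Array values are given for all ife genes, the 3 highest and 3 lowest called changes per role and comparison, the whole of eIF2B, and the 3 other translation genes with the smallest p per comparison. Members, lists and rules were chosen with earlier results of these data known. Alternatives were quantile normalization, median centring, 2 filters, a pseudocount of 16, no trend, the mean of a gene's probe sets, a replicate block, leaving out each array and, chosen after seeing the data, removal of vars-1.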

Additional observations from a re-analysis of the deposited data

How the results depend on the processing

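Of the calls against N2, 17 of 29 in aex-3 SUMO and 16 of 35 in myo-4 SUMO held under all 17 alternatives, and 18 and 9 uncalled members were called under at least 1. Of 565 recomputed counts, 465 stayed within 1.5 times the reported one. Under quantile normalization the change of eef-1A.1 turned to 0.010 in aex-3 SUMO and 0.013 in myo-4 SUMO, and that of eef-2 to 0.015 in myo-4 SUMO. The cause was not tested. Counts of members called lower were the least stable. In aex-3 SUMO they went to 0 with median centring, 1 without a filter, 4 with a filter at the 60th percentile and 1 without the trend, all as for the elongation factors, which had 1 under quantile normalization. In myo-4 SUMO they were 1 under quantile normalization and 0 with median centring, no filter or no trend, and the elongation factors were at 0 in these 4 settings. Quantile normalization gave 1 lower initiation factor in aex-3 SUMO (an eIF3 gene), 1 lower synthetase, a cytosolic one, in each line, 3 higher eIF2B genes in aex-3 SUMO and 2 higher cap-binding genes in myo-4 SUMO, a number also reached with median centring and with the mean of probe sets. Median centring gave 16 higher initiation factors, 6 higher eIF3 genes and 15 higher other translation genes in aex-3 SUMO. The other translation genes lower in aex-3 SUMO were 3 with median centring or the mean of probe sets, and in myo-4 SUMO 3 with either, without a filter or without the trend. Without a filter 4 mitochondrial synthetases were higher in myo-4 SUMO, and without a filter or the trend 2 eIF3 genes were.

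Leaving out 1 array gave 20 to 29 higher and 0 to 4 lower members in aex-3 SUMO, and 20 to 29 and 0 to 2 in myo-4 SUMO. By role, in aex-3 SUMO, initiation factors had 7 to 12 higher and 0 to 1 lower, eIF2B 3 to 5 higher, eIF3 2 to 3 higher and 0 to 1 lower, cap-binding proteins 1 to 2 higher and 0 to 1 lower, elongation factors 0 to 4 lower, cytosolic synthetases 8 to 9 higher and 0 to 1 lower, mitochondrial ones 3 to 7 higher, all synthetases 0 to 1 lower, and other translation genes 8 to 12 higher and 5 to 6 lower. In myo-4 SUMO the ranges were 8 to 11 higher for initiation factors, 3 to 5 for eIF2B, 2 to 4 for eIF3, 1 to 2 for cap-binding proteins, 0 to 2 lower for elongation factors, 7 to 12 higher for cytosolic and 3 to 6 for mitochondrial synthetases, 11 to 16 for all synthetases, and 8 to 15 higher and 3 to 5 lower for other translation genes. The lowest of these for all members, eIF2B, cytosolic synthetases and other genes higher in myo-4 SUMO were each without myo-4 SUMO replicate 2.

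Replicates with the same number did not deviate together (correlations -0.194 to 0.0295, and an array correlated best with its own number in 4 of 18 cases), so they were not taken as pairs. With the replicate number as a block, myo-4 SUMO had 1 lower member, 1 lower elongation factor, 4 higher mitochondrial synthetases, 2 higher eIF3 genes and 3 lower other translation genes.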
